A study of Saccharomyces cerevisiae with 16 samples.

Results

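The small subunit processome is the large particle in which budding yeast (*Saccharomyces cerevisiae*) begins to build the 40S ribosomal subunit, and 50 of its proteins and of the factors that finish the 40S subunit are described here. The members were picked by open reading frame name under a rule that uses no measured value, though with earlier results of these data known, and all 50 were found among the 5574 features of the deposited tables, NOP1 (YDL014W), IMP3 (YHR148W) and UTP22 (YGR090W) among them. Ribosome footprints, the stretches of mRNA that a ribosome shields from nuclease, and mRNA were sequenced from 4 strains of the laboratory background BY4741. They were wild type and deletions of CAN1 (the arginine permease of the plasma membrane), RPL22A (1 of the paralogous genes for a large-subunit ribosomal protein; the paralog RPL22B is not labelled as deleted) and TOR1 (a kinase of the growth-signalling complex TORC1). All strains grew in rich YPD medium to an optical density of 0.5, and no strain was treated otherwise. Footprint libraries numbered 3 for wild type, 3 for can1, 2 for rpl22a and 2 for tor1. There were 2 mRNA libraries for wild type, 2 for can1, and 1 each for rpl22a and tor1. The labels do not say whether replicates were separate cultures or how many isolates stand behind each deletion, so the spread behind each p-value is that of these libraries and may be technical.

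Recovered library totals ran from 2523000 to 8698000 reads for footprints and from 7646000 to 26589000 reads for mRNA, rounded to 1000 reads. The least covered member in any library was UTP30, with 82 reads. For such members in the shallower libraries, counting error alone is of the order of the spread between replicates. The members together took between 1.21 and 1.52% of the listed footprint reads and between 1.03 and 1.79% of the listed mRNA reads. The deletions were visible in the data, since CAN1 and TOR1 held at most 3 reads in any library of their own deletion strain, and RPL22A at most 17 footprints and 85 mRNA reads, against at least 109 reads for each of these genes in every library of the other strains.

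The processome assembles while RNA polymerase I is still copying the ribosomal RNA gene. The UtpA and UtpB complexes bind the leader of the transcript, and the U3 small nucleolar ribonucleoprotein, with the Mpp10 complex, pairs with the pre-rRNA and marks the sites that are cut to free the 18S rRNA. Helicases, GTPases, an acetyltransferase and methyltransferases then remodel the particle, and a late set of factors accompanies the pre-40S subunit to the cytoplasm, where the last cut is made. In yeast, genes of this kind are known to share the promoter elements PAC and RRPE and to be turned up and down together with growth.

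These shared elements were seen in the promoters of the members. The core of PAC (GATGAG, either strand) and the core of RRPE (AAAATTTT, which is its own reverse complement) were searched in the window from 250 bases before to 50 bases into each RefSeq gene of build R64. PAC cores were found in 45 of 50 members and in 20.4% of all 6001 protein-coding genes. RRPE cores were found in 39 of 50 members and in 9.03% of all genes, and both elements together in 37 members and in 4.38% of all genes. Overlapping copies, as in GATGAGATGAG, were counted each. The stretches below are those of the members on which the later results turn, with the motif letters in capitals and 10 bases on each side, written 5′ to 3′ along the coding strand.
UTP10 (chrX:217394-217435, minus strand): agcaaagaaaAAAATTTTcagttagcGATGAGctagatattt
PWP2 (chrIII:223357-223392, minus strand): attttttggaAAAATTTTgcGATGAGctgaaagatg
IMP3 (chrVIII:393442-393467, plus strand): ctgatataagCTCATCgcaacaaaaa
IMP4 (chrXIV:485450-485496, plus strand): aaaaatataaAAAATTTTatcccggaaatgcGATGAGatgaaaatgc
PNO1 (chrXV:606256-606316, minus strand): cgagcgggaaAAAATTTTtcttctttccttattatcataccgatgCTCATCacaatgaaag
UTP23 (chrXV:333472-333539, plus strand): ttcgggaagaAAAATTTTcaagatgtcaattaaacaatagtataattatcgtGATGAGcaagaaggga
RRP9 (chrXVI:802229-802254, plus strand): acattttataGATGAGctttgattaa
NOP56 (chrXII:545915-546004, plus strand): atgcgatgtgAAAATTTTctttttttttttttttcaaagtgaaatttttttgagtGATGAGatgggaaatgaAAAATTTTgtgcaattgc
RRP5 (chrXIII:731259-731309, minus strand): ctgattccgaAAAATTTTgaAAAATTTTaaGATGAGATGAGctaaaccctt
KRE33 (chrXIV:375124-375195, plus strand): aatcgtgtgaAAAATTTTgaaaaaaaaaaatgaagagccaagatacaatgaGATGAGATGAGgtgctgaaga
BMS1 (chrXVI:143262-143301, minus strand): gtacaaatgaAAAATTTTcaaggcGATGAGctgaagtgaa
In UTP10, PWP2, IMP4, UTP23, NOP56, RRP5, KRE33 and BMS1 an RRPE core lies upstream of a PAC core on the coding strand, whereas the stretches of IMP3 and PNO1 carry the PAC core on the other strand (as CTCATC). No core of either kind was found in the windows of UTP22, UTP30 and EMG1. The related lists held the cores about as often: 32 of 35 other 40S assembly factors and 7 of 8 RNA polymerase I genes had a PAC core, but only 3 of the 25 genes for 40S ribosomal proteins that could be looked up by a single name. A match describes letters in a window and not a site in use.

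In wild type, the members were expressed above the typical gene. Their median level was 77.4 RPKM (reads per 1000 coding bases and per 1000000 reads, scaled between libraries) in footprints and 62.8 RPKM in mRNA, against 22.8 and 24.8 RPKM for the median of 4896 genes. The core proteins of the box C/D ribonucleoproteins stood far above the rest. SNU13, which binds the kink-turn of box C/D RNAs and also serves the spliceosome, had 1317.3, 1382.4 and 1183.3 RPKM in the 3 wild-type footprint libraries. NOP1, the fibrillarin methyltransferase, had 933.3, 1091.8 and 1023.1 RPKM, and the scaffold proteins NOP58 and NOP56 averaged 651.2 ± 21.9 and 615.9 ± 44.4 RPKM (SD, n = 3). RRP9, which belongs to the U3 particle alone, had only 66.9 ± 3.5 RPKM and lay within the range of the processome proteins. These 4 core proteins serve many box C/D particles besides U3.

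The members outside that class ranged from 28.6 to 211.9 RPKM in footprints. The lowest was DHR2, a DEAH-box helicase, at 28.6 ± 2.6 RPKM (SD, n = 3), followed by UTP20, a very long HEAT-repeat protein, at 37.3 ± 7.7 RPKM, and their libraries overlapped (25.9, 29.1 and 31.0 RPKM for DHR2 against 29.3, 37.9 and 44.7 for UTP20). The highest were RRP5, an RNA-binding protein needed for both subunits, at 211.9 ± 12.1 RPKM, KRR1, a KH-domain protein, at 192.3 ± 17.7 RPKM, and PNO1, the partner of the nuclease NOB1, at 191.7 ± 13.3 RPKM. The libraries of these 3 overlapped. Among the late pre-40S factors, TSR1, a GTPase-like protein, was lowest at 57.6 ± 3.1 RPKM, and NOB1, which makes the final cut of 18S rRNA, had 66.3 ± 5.0 RPKM. Among the enzymes, EMG1, a pseudouridine methyltransferase, was highest at 143.6 ± 16.2 RPKM, DIM1, the 18S rRNA dimethylase, had 117.0 ± 8.1 RPKM and BMS1, a GTPase, 57.6 ± 1.2 RPKM.

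**Figure D1:**
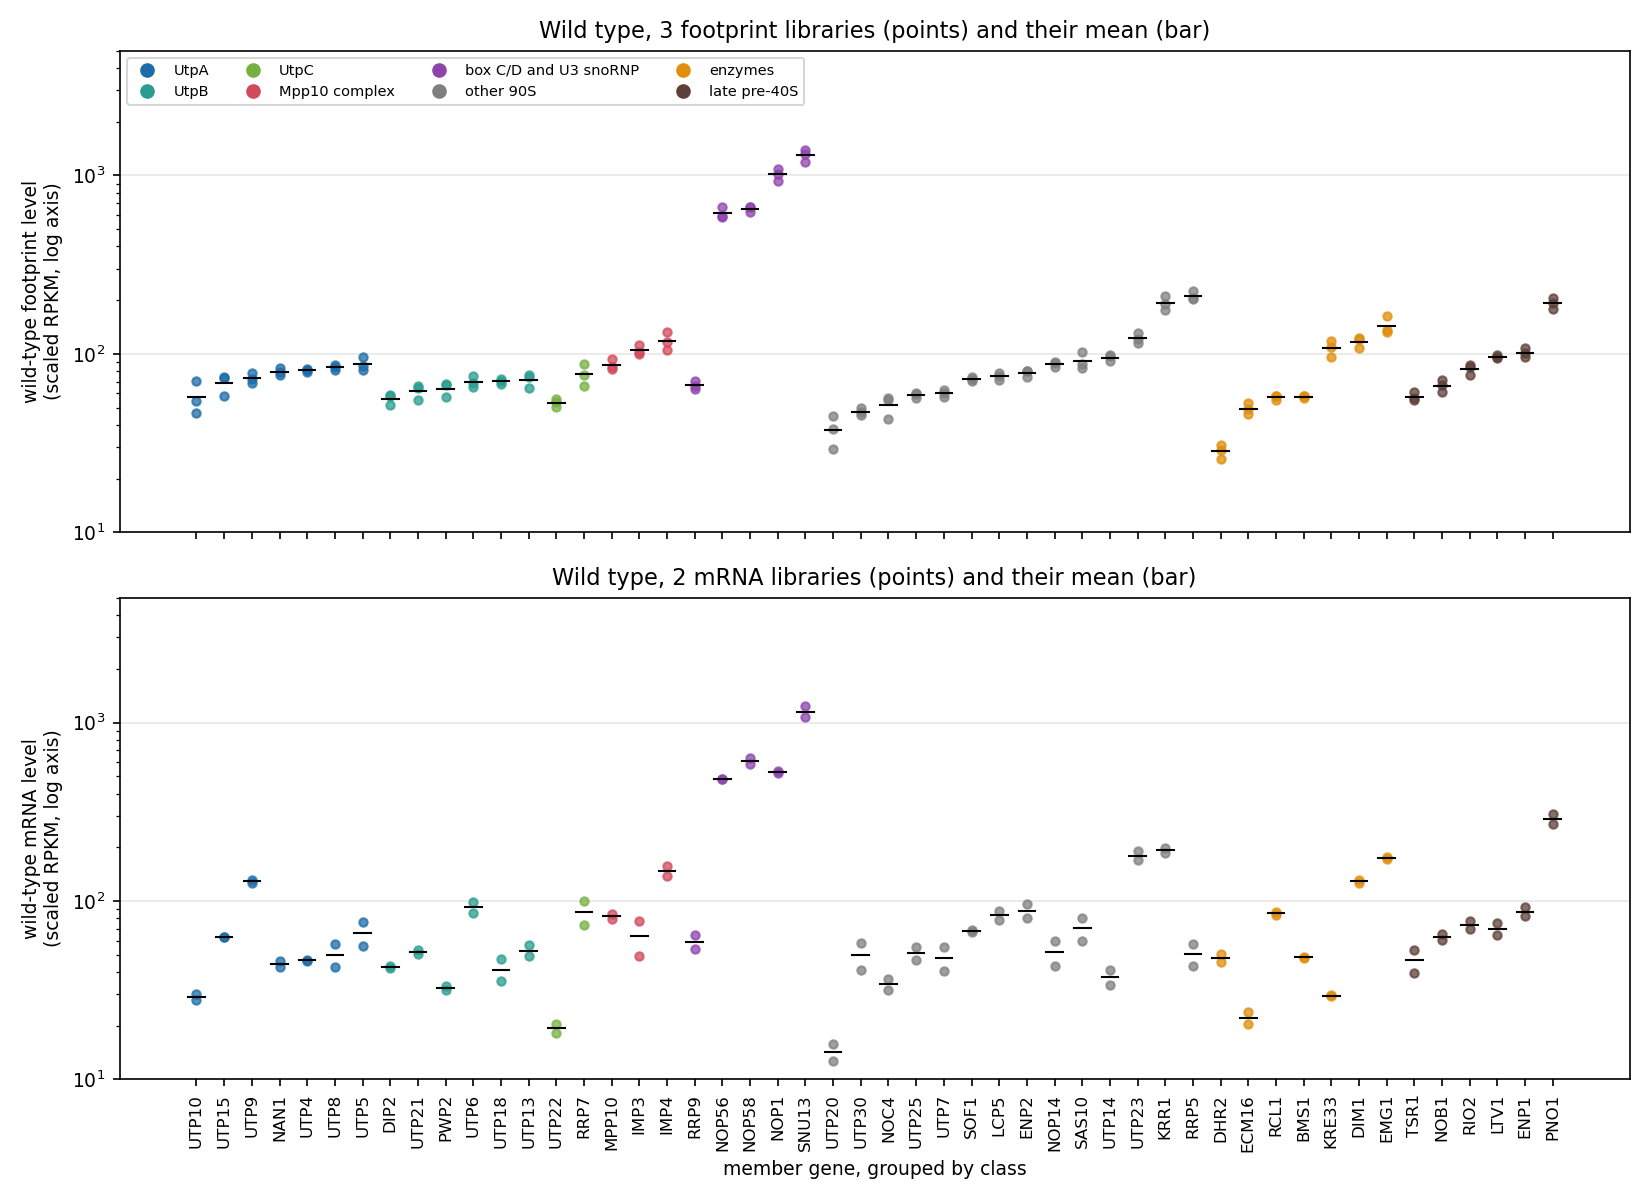
Wild-type levels of the 50 members in scaled RPKM on a log axis, with 1 point per library (3 footprint libraries above, 2 mRNA libraries below), a bar at the mean and colours by class. The 7 UtpA and 6 UtpB genes form nearly flat rows in footprints, from 57.4 to 87.8 and from 56.2 to 71.4 RPKM, and spread from 29.1 to 128.9 and from 32.5 to 92.2 RPKM in mRNA.

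Levels within most classes, complexes or not, and over all 50 members were closer to each other in footprints than in mRNA. Over all members the highest mean level was 45.2 times the lowest in footprints and 80.8 times in mRNA. In wild type, the 6 UtpB genes ranged from DIP2 at 56.2 RPKM to UTP13 at 71.4 RPKM in footprints, a 1.27-fold range, while in mRNA PWP2, the organising subunit, had 32.5 RPKM and UTP6 had 92.2 RPKM, a 2.84-fold range. The 7 UtpA genes ranged 1.53-fold in footprints, from UTP10 at 57.4 to UTP5 at 87.8 RPKM, and 4.43-fold in mRNA, from UTP10 at 29.1 to UTP9 at 128.9 RPKM. UTP22 and RRP7, the partners of the UtpC complex, differed 1.44-fold in footprints (53.3 and 76.8 RPKM) and 4.48-fold in mRNA (19.3 and 86.7 RPKM). The 3 proteins of the Mpp10 complex ranged 1.36-fold in footprints, from MPP10 at 86.9 to IMP4 at 117.8 RPKM, and 2.33-fold in mRNA, from IMP3 at 63.4 to IMP4 at 148.1 RPKM.

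For the UtpA and UtpB complexes this was also seen library by library. The highest UtpB level was between 1.16 and 1.41 times the lowest in the 10 footprint libraries, and between 2.02 and 3.54 times in the 6 mRNA libraries, so the ranges did not overlap. For UtpA it was 1.26 to 2.20 times in footprints and 3.14 to 4.68 times in mRNA, again without overlap. For the Mpp10 complex the ranges overlapped, at 1.26 to 2.46 times in footprints and 1.82 to 2.81 times in mRNA. Classes that are no single complex narrowed too: in the wild-type means, the ratio was 5.68 in footprints and 13.55 in mRNA for the other processome proteins, 3.33 and 6.24 for the late factors, and 5.01 and 7.82 for the enzymes. The box C/D class was the exception, with 19.35 in footprints and 19.51 in mRNA. The narrowing is therefore not particular to subunits of a shared complex. Coding length moves with these values and its part in them was not tested: over the 50 members the Spearman correlation of coding length with the level was −0.73 and −0.82 in the wild-type mRNA libraries and between −0.51 and −0.42 in the wild-type footprint libraries. Over 4120 genes, which share the same libraries, it was −0.47 and −0.49 in mRNA and between −0.29 and −0.20 in footprints.

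The ratio of footprints to mRNA, called translational efficiency, is given here for wild type on the log2 scale less the value of the median gene. The median of the members was 0.33, and 38 of 50 lay above the median gene. RRP5 was highest at 2.15, or 4.44 times the median gene, with 1.89 to 2.47 over the 6 combinations of a footprint and an mRNA library. KRE33, the rRNA and tRNA cytidine acetyltransferase, followed at 1.95 (1.77 to 2.10) and UTP22 at 1.54 (1.37 to 1.69), and these 3 stood at the 97.7, 97.1 and 93.4 percentiles of 4120 genes. The ranges of RRP5 and KRE33 overlapped each other and lay wholly above that of UTP22, which overlapped that of UTP20 (0.97 to 1.89).

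At the other end stood UTP9, a UtpA subunit, at −0.75 (−0.86 to −0.62), DHR2 at −0.66 (−0.88 to −0.48) and PNO1 at −0.52 (−0.72 to −0.33), whose ranges overlapped. UTP9 had the highest mRNA level of the UtpA genes, while its footprints were 72.9 RPKM. PNO1 was the highest of the late factors in mRNA and also in footprints, at 191.7 RPKM. UTP10 and PWP2 were at 1.06 and 1.05, NOP1 at 1.03, BMS1 at 0.33, MPP10 and NOB1 both at 0.16 and DIM1 at −0.07. Long members had the higher ratios: the median was 1.47 for the 7 members with 3000 or more coding bases, 0.52 for 13 members with at least 2000 but under 3000, 0.25 for 19 with at least 1000 but under 2000 and −0.07 for the 11 shorter than 1000. As a description, the Spearman correlation of the ratio with coding length was 0.67 over the 50 members and 0.40 over 4120 genes. The mRNA was cut by alkaline hydrolysis and the footprints by RNase I, per the labels, and the part of this in the length trend was not tested.

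**Figure D2:**
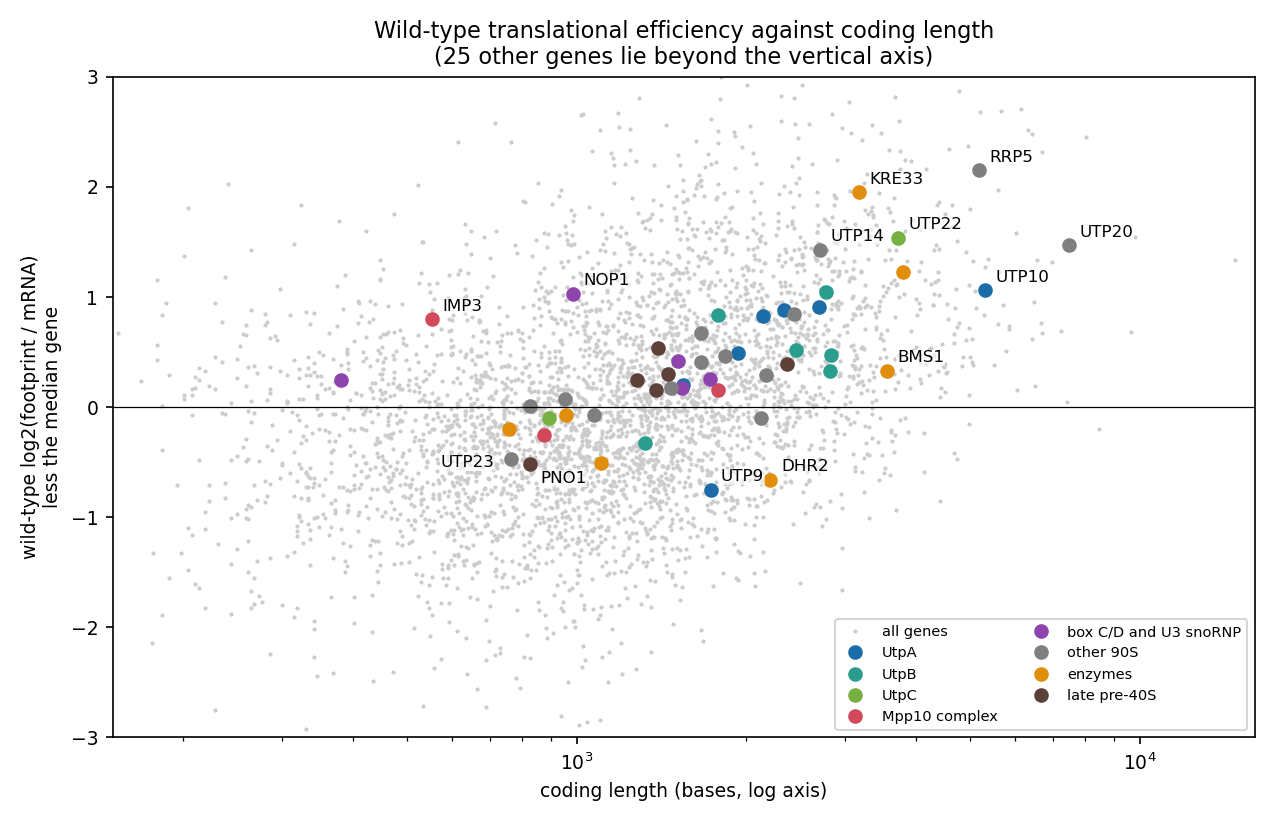
Wild-type log2 ratio of footprints to mRNA, less that of the median gene, against coding length in bases on a log axis, for all genes (grey) and the members (coloured by class). RRP5 at 2.15 and KRE33 at 1.95 are the highest members and UTP9 at −0.75 the lowest, and long members lie mostly above 0.

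No member passed the test in the footprints of the can1 strain. By limma with Benjamini-Hochberg adjustment, 0 of 50 members were called at an adjusted p under 0.05, against 0.224% of 4900 genes. At an unadjusted p under 0.05 there were 0 members, beside 232 of all 4900 genes. The median log2 fold change was −0.01 and the members ran from −0.14 to 0.21. RRP5 had the smallest p among them: its levels were 252.6, 257.3 and 228.1 RPKM in can1 and 206.8, 203.1 and 225.7 RPKM in wild type. The can1 libraries all lay above the wild-type ones, and the fold change was 0.21 ± 0.10 (SE, adjusted p = 1.0). The change varied with coding length here too, with a Spearman correlation of 0.61 over the 50 members and 0.25 over 4900 genes. The median was 0.16 for the 7 members of 3000 bases or more and −0.05 for the 19 with at least 1000 but under 2000. The 95% intervals were wide enough to hold moderate changes, such as −0.27 to 0.56 for UTP10 and −0.19 to 0.26 for NOP1.

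The mRNA of the members was likewise not called in can1. Of 50 members 0 passed, against 1.4% of 5280 genes, and 0 had an unadjusted p under 0.05 in limma, beside 393 of all 5280 genes. The median was 0.09, and the lowest and highest values were −0.21 and 0.39, the latter for UTP20 (SE 0.21, adjusted p = 0.728) with 19.1 and 18.7 RPKM in can1 and 12.7 and 15.7 RPKM in wild type. Scaling matters here, since with the deposited values unscaled the median of all genes was 0.21 and that of the members 0.31, and the distance between them was 0.09 with scaling and 0.10 without. For translational efficiency in can1, limma called 0 members, against 0.0204% of 4896 genes, and the median was −0.04. At an unadjusted p under 0.05 there were 0 members, beside 88 of all 4896 genes. RRP5 was at 0.24 ± 0.20 and NOP14, a core processome protein, at −0.32 ± 0.20 (SE).

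Deletion of TOR1, set against the same wild-type libraries, also gave no call among the members. In footprints limma called 0 of 50, against 0.0408% of 4900 genes, and the median was 0.02. At an unadjusted p under 0.05 there was 1 member, beside 356 of all 4900 genes. That member was again RRP5, with 278.7 and 254.8 RPKM in tor1, above the 3 wild-type libraries, and a fold change of 0.33 ± 0.12 (SE, adjusted p = 0.612). Between can1 and tor1 footprints limma called 0 members, against 0.184% of all genes. EMG1 alone of the members had an unadjusted p under 0.05 (−0.31 ± 0.12 SE, adjusted p = 0.484), beside 472 of all 4900 genes. In the lone tor1 mRNA library, a gene was counted when it lay more than 1.5-fold from the wild-type mean and beyond both wild-type libraries. No member was counted higher, against 0.852% of 5280 genes, or lower, against 1.88%, and the members ran from −0.27 to 0.30 on the log2 scale. A library without a replicate gives no test.

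In the footprints of the rpl22a strain, 7 members were called different from wild type by limma. IMP3, IMP4, PNO1, UTP30 and UTP23 rose by 0.43 to 0.64 on the log2 scale, and UTP22 and RRP9 fell. The 5 higher calls among 50 members stand beside 9.76% of all 4900 genes called higher, and the 2 lower calls beside 9.47% called lower, so neither share was far from the background. The median of the members was 0.11 and that of all genes 0.02, and 34 members lay above 0, beside 2568 of all 4900 genes. Both rpl22a libraries lay above all 3 wild-type libraries for 18 members, against 26.1% of all genes, and below them for 5 members, against 24% of all genes. Since each library pools a whole culture, fewer cells in a given state and less RNA per cell cannot be told apart.

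IMP3 and IMP4 bind U3 and the pre-rRNA and help them pair, as partners of MPP10. IMP3 had 153.3 and 174.1 RPKM in the rpl22a libraries and 99.4, 112.8 and 102.5 RPKM in wild type, a change of 0.64 ± 0.14 (SE, adjusted p = 0.00923). IMP4 had 183.0 and 172.9 RPKM against 132.1, 115.9 and 105.3 RPKM, a change of 0.60 ± 0.13 (SE, adjusted p = 0.0108). In both genes the groups were well apart. MPP10 itself, the longest of the 3, had 100.3 and 70.8 RPKM in rpl22a and 94.2, 84.2 and 82.2 RPKM in wild type, with overlapping libraries and a change of −0.04 ± 0.15 (SE, adjusted p = 0.881).

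PNO1 had 296.4 and 282.6 RPKM in rpl22a and 204.5, 192.7 and 177.9 RPKM in wild type, a change of 0.59 ± 0.11 (SE, adjusted p = 0.00337), the smallest adjusted p among the members. The groups did not overlap, and the libraries within each differed little. Its partner NOB1 had 76.8 and 67.3 RPKM against 61.0, 71.0 and 67.1 RPKM (0.12 ± 0.12 SE, adjusted p = 0.528) and overlapped. UTP30, which carries a domain like that of ribosomal protein L1 and is not essential, had 64 and 70.5 RPKM against 49.6, 47.0 and 45.6 RPKM (0.50 ± 0.14 SE, adjusted p = 0.0282). UTP23, a PIN-domain-like protein tied to the small nucleolar RNA snR30, had 171.4 and 159.0 RPKM against 120.8, 131.3 and 115.2 RPKM (0.43 ± 0.13 SE, adjusted p = 0.0446). In UTP30 and UTP23 the rpl22a libraries were likewise all higher.

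UTP22 fell most. It had 37.2 and 29.5 RPKM in the rpl22a libraries and 50.2, 53.9 and 55.8 RPKM in wild type, with no overlap and a change of −0.67 ± 0.15 (SE, adjusted p = 0.0103). Its partner RRP7 had 83.6 and 81.4 RPKM against 87.9, 75.9 and 66.5 RPKM and was not called (0.11 ± 0.13 SE, adjusted p = 0.595). RRP9 had 53.2 and 49.4 RPKM against 66.4, 70.6 and 63.6 RPKM, a change of −0.38 ± 0.11 (SE, adjusted p = 0.0319). The box C/D scaffold protein NOP56, at 554.4 and 454.9 RPKM against 666.8, 595.1 and 585.6 RPKM, lay below wild type in both libraries but missed the threshold (−0.29 ± 0.12 SE, adjusted p = 0.111), as did DIM1 on the higher side (0.27 ± 0.11 SE, adjusted p = 0.102). These were the uncalled members nearest the threshold.

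By class, 2 of 3 members of the Mpp10 complex, 2 of 14 other processome proteins and 1 of 6 late factors were called higher. The lower calls were 1 of 2 UtpC and 1 of 5 box C/D members. Beside these stand 9.76% of all 4900 genes called higher and 9.47% called lower. No gene of the 7 UtpA, 6 UtpB or 7 enzyme genes passed in limma. Of them 0, 0 and 3 had an unadjusted p under 0.05, beside 1679 of all 4900 genes. The UtpA genes ran from −0.23 in UTP10 to 0.28 in UTP15, and the UtpB genes from −0.07 in PWP2 and UTP13 to 0.27 in UTP18. Among the enzymes BMS1 was at 0.24 ± 0.14 and DHR2 at 0.34 ± 0.16 (SE).

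**Figure D3:**
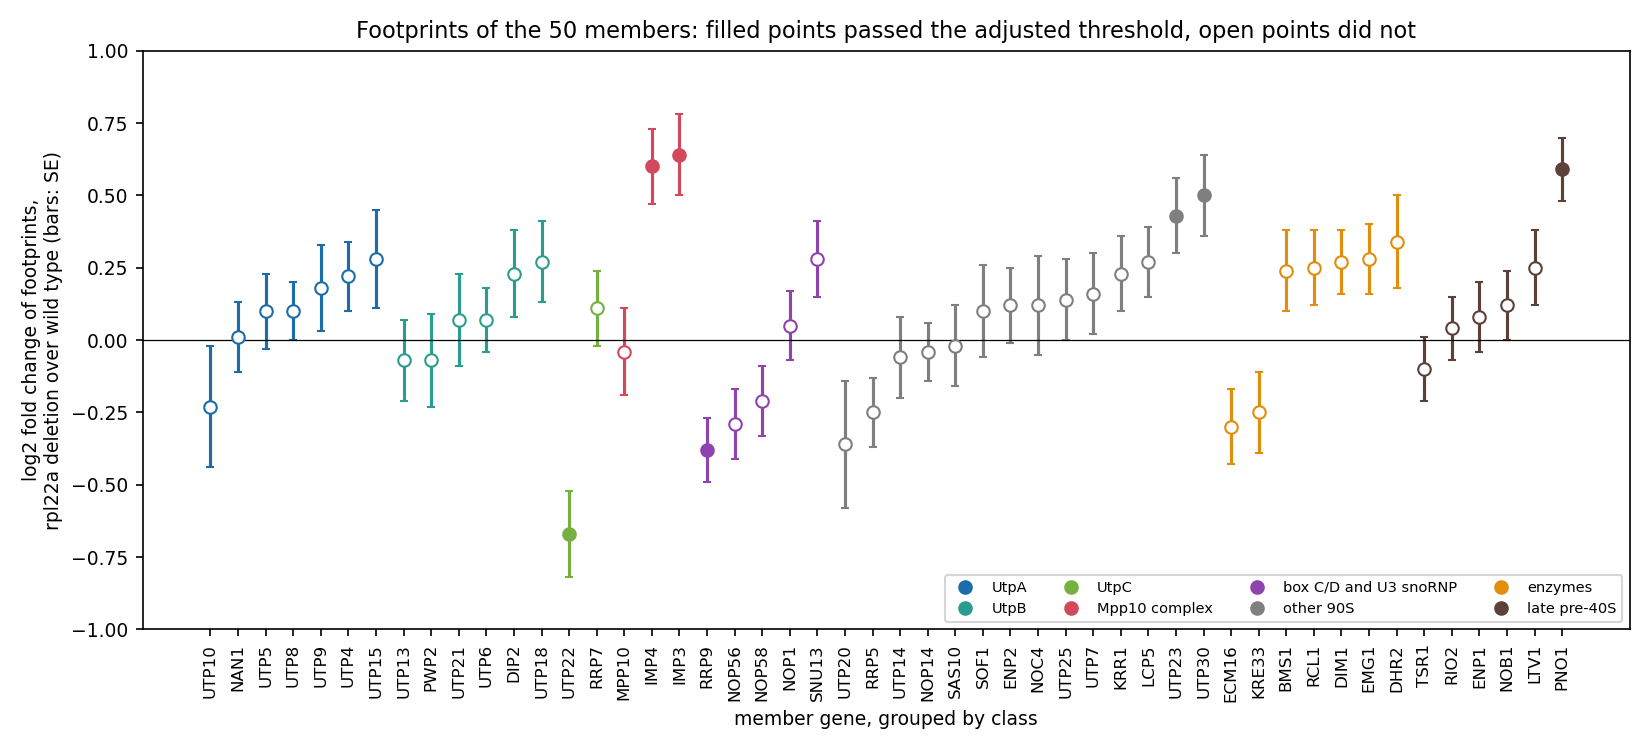
Log2 fold change of footprints in the rpl22a deletion over wild type for each of the 50 members, grouped by class, with standard errors; filled points passed an adjusted p of 0.05. IMP3 at 0.64 is the highest and UTP22 at −0.67 the lowest, and the UtpA, UtpB and enzyme genes are all open points.

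The size and sign of the change varied with coding length. All 5 members that rose have fewer than 900 coding bases, from 552 in IMP3 to 873 in IMP4, and UTP22 has 3714. The 11 members shorter than 1000 bases had a median change of 0.28, against 0.24 for 1744 genes of that size. The 19 members with at least 1000 but under 2000 bases had 0.10, against −0.02 for 1930 genes. The 13 with at least 2000 but under 3000 had 0.07, against −0.09 for 760 genes. The 7 members with 3000 or more bases had −0.25, equal to the −0.25 of 466 genes. Among those 7, UTP20 was at −0.36, ECM16 (the helicase Dhr1, which releases U3) at −0.30, RRP5 and KRE33 both at −0.25 and UTP10 at −0.23, none of them called, and BMS1 stood apart at 0.24. The Spearman correlation of the change with coding length was −0.65 over the 50 members and −0.42 over 4900 genes, a description only, and opposite in sign to that in can1. With the length trend taken out of each library, IMP4, PNO1 and UTP22 kept their calls in limma. IMP3 (0.36, adjusted p = 0.0882), UTP30 (0.34, adjusted p = 0.0693), UTP23 (0.25, adjusted p = 0.196) and RRP9 (−0.31, adjusted p = 0.0642) lost them. BMS1, DHR2, DIP2 and UTP4 gained one. In that setting 6 members were called higher and 1 lower, beside 347 and 490 of all 4900 genes. The median of the members was then 0.14 and that of all genes 0.02.

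**Figure D4:**
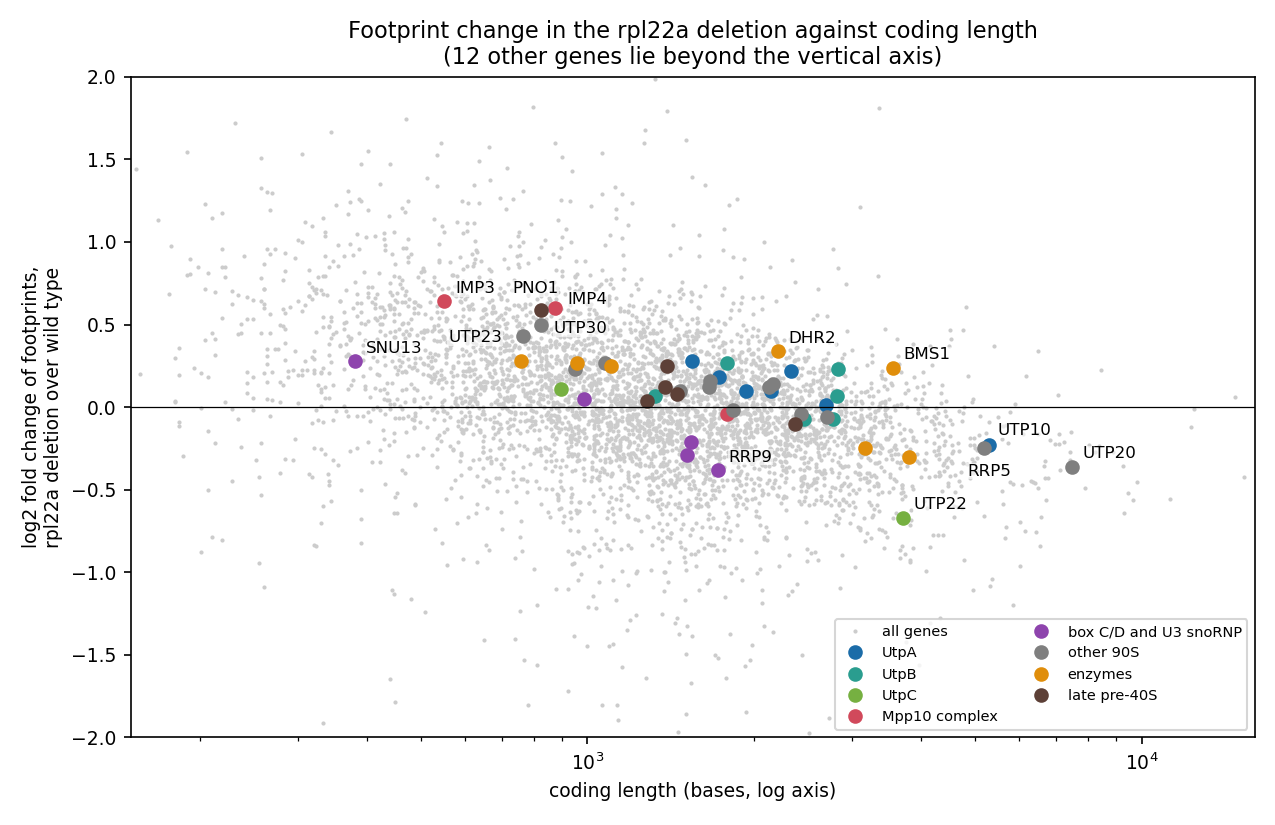
Log2 fold change of footprints in the rpl22a deletion against coding length in bases on a log axis, for all genes tested (grey) and the members (coloured by class). The members follow the slope of all genes, from the short IMP3, PNO1 and IMP4 at about 0.6 to UTP22 at −0.67 and UTP20 at −0.36.

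The libraries set limits on these calls. Without wild-type replicate 2 the higher calls were IMP3, IMP4 and PNO1, beside 299 higher and 341 lower of all 4900 genes. Without wild-type replicate 3 they were the same, beside 281 and 345 genes. Leaving out an rpl22a replicate left 1 library in that group, so the calls could not be checked that way. The median was then 0.21 for the members and 0.02 for all genes without rpl22a replicate 2. It was 0.00 and 0.03 without rpl22a replicate 1. Without wild-type replicate 1 or 2 RRP9 was not called. With the deposited values unscaled the median of all genes moved to 0.17 and that of the members to 0.26. Then 10 members were called higher and 1 lower, against 5 and 2 with scaling. Of all 4900 genes, 886 were called higher and 293 lower without scaling, against 478 and 464 with it.

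The rpl22a libraries differed from each other by length. The median of the members less the wild-type mean was 0.21 in replicate 1 and 0.00 in replicate 2. Members shorter than 1000 bases were at 0.32 and 0.38, whereas members of 3000 bases or more were at −0.07 and −0.45. Replicate 2 also had the smallest share of its reads in listed features of any footprint library, 76.4% against 80.6 to 81.7% in the others, and the part of this in the results was not tested.

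In the lone rpl22a mRNA library it was the long members that stood higher, with a median of 0.45 for those of 3000 bases or more and 0.06 for those under 1000. The Spearman correlation of the change with coding length there was 0.35 over the 50 members and 0.28 over all 5280 genes. Of the 50 members 47 lay above the wild-type mean, beside 2780 of all 5280 genes. The median was 0.30 for the members and 0.02 for all genes, and without further scaling the distance between these medians was 0.29. UTP8, IMP3, ECM16, NOC4 and UTP30 were past the same rule on the higher side, 5 members beside 5.44% of all genes, and none was on the lower side, beside 8.71% of all genes. IMP3 had 104.4 RPKM, against 49.3 and 77.6 RPKM in the wild-type libraries. ECM16 had 35.6 RPKM against 20.4 and 23.9 RPKM. These counts turn on the wild-type library they are set against, with 11 members past the fold against wild-type replicate 1 alone and 0 against replicate 2 alone. The share of all genes past the fold against a lone wild-type library is not given, so the counts of 11 and 0 are no result about the members.

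**Figure D5:**
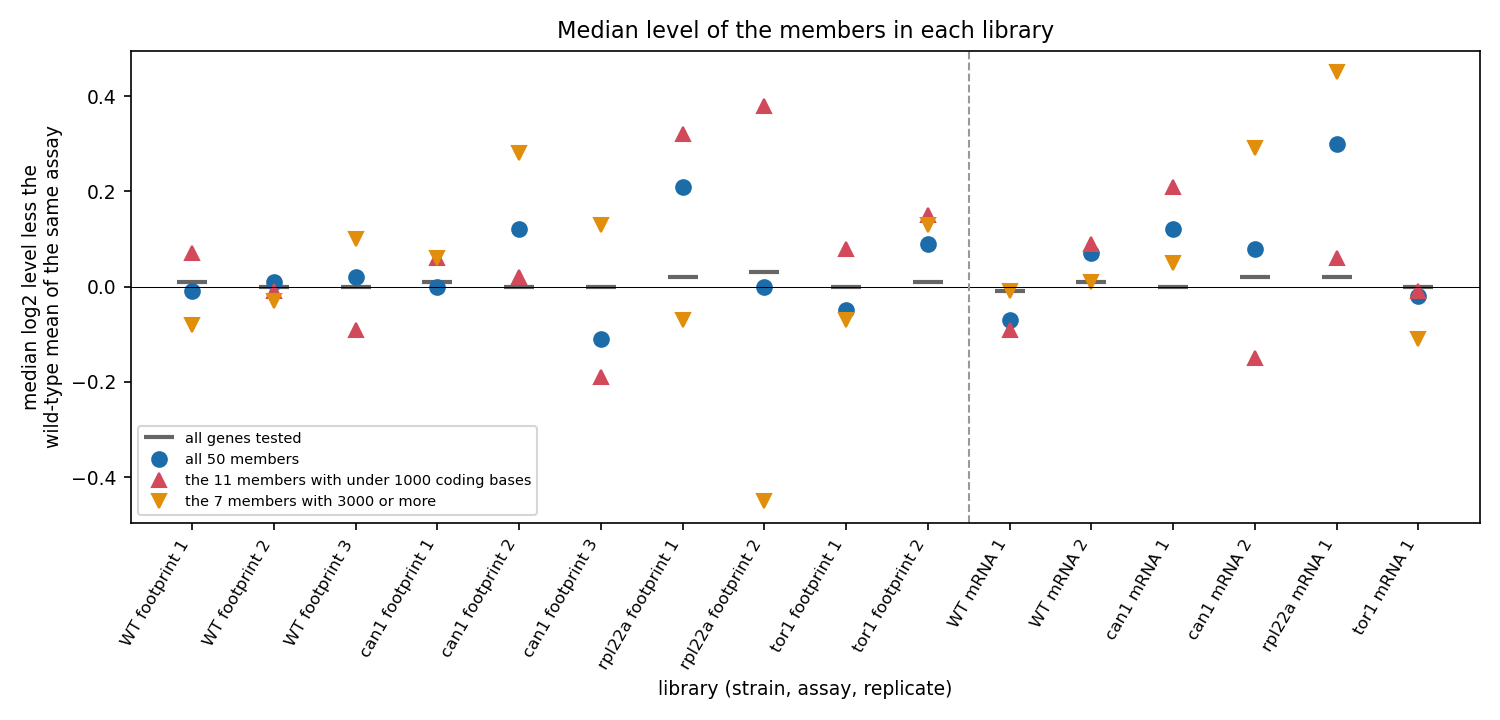
Median log2 level in each of the 16 libraries, less the wild-type mean of the same assay, for all genes tested, the 50 members, the 11 members with under 1000 coding bases and the 7 with 3000 or more. In the rpl22a footprint libraries the short members are at 0.32 and 0.38 and the long ones at −0.07 and −0.45, while in the rpl22a mRNA library the long members are at 0.45.

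Set side by side, footprints and mRNA of the rpl22a strain differed most for the long members. UTP22 had −0.67 in footprints and 0.28 in the mRNA library, ECM16 −0.30 and 0.66, and UTP20 −0.36 and 0.58. PNO1 had 0.59 and 0.20 and UTP23 0.43 and 0.04, so their footprints stood higher than their mRNA. For IMP3 (0.64 and 0.75), IMP4 (0.60 and 0.47) and UTP30 (0.50 and 0.59) both were above wild type. Footprint less mRNA change had a median of −0.21 over the members and 12 of 50 were above 0, against 2441 of 4896 genes, and with 1 mRNA library this has no test.

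The direct comparisons of the deletions used other control libraries in place of wild type, though they share the rpl22a libraries with the comparison above. Against can1, 6 members were called higher, beside 11.9% of all genes, and 4 lower, beside 11.8%. Those higher were IMP4, IMP3, PNO1, UTP30, UTP23 and EMG1, and those lower were UTP22, RRP5, ECM16 and KRE33. For RRP5 the levels were 196.8 and 161.0 RPKM in rpl22a and 252.6, 257.3 and 228.1 RPKM in can1, with no overlap and a difference of −0.46 ± 0.12 (SE, adjusted p = 0.0159). Without can1 replicate 1 there were 6 higher and 5 lower members, beside 691 and 638 of all 4900 genes. Without can1 replicate 2 there were 5 and 1, beside 373 and 401 genes. Without can1 replicate 3 there were 3 and 2, beside 332 and 355 genes. Leaving out an rpl22a replicate left 1 library in that group, so the calls could not be checked that way. The median of the members was then 0.02 without rpl22a replicate 1 and 0.23 without rpl22a replicate 2, against 0.03 for all genes in both. Against tor1, IMP3 and PNO1 were called higher, 2 members beside 7.02% of all genes, and RRP5, UTP22 and NOP56 lower, 3 members beside 7.41%. NOP56 had 739.8 and 719.1 RPKM in tor1, above the 554.4 and 454.9 RPKM of rpl22a, a difference of −0.54 ± 0.13 (SE, adjusted p = 0.0201). Without tor1 replicate 1, or without rpl22a replicate 2, 0 members were called against tor1 in limma, and without tor1 replicate 2 RRP5 alone was.

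Related gene lists were counted in the rpl22a footprints in the same way, beside the 9.76% of all genes called higher and 9.47% called lower. Of 35 other 40S assembly factors, 2 were called higher and 0 lower (median 0.21). Of 44 factors of the 60S subunit, 7 were called higher and 0 lower (median 0.17), and of 8 RNA polymerase I genes 4 higher and 0 lower (median 0.38), the short subunit gene RPA14 (YDR156W) at 1.04 among them. Of 41 features for 40S ribosomal proteins, 2 were called higher and 3 lower (median 0.10). The same medians over the lone rpl22a mRNA library were 0.30, 0.27 and 0.28 for the 40S factors, the 60S factors and the polymerase and −0.70 for the ribosomal proteins. In can1 and tor1 footprints limma called 0 genes of each of these lists, against 0.224% and 0.0408% of all 4900 genes. At most 2 per list had an unadjusted p under 0.05, beside 232 of all genes in can1 and 356 in tor1.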

How the data were processed

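The authors deposited 1 RPKM value per feature and library, on coding sequence less 100 bases. Reads were aligned with Bowtie 1.1.2 to build R64, per the submitters' processing notes. Library totals were recovered from the steps between low RPKM values (tolerance 0.05), and 3 libraries were fitted as means of 2 runs, so their read numbers are approximate. RPKM was rescaled by trimmed mean of M-values (30% of fold, 5% of level trimmed) and tested as log2(RPKM + 1) with limma 3.58.1 in R 4.3.3 (trended, robust), with Benjamini-Hochberg adjustment over 4900 genes for footprints, 5280 for mRNA and 4896 for translational efficiency. Fold changes on this scale understate those of low genes. All 10 footprint libraries shared 1 fit and all 6 mRNA libraries another, the latter with variances pooled almost fully over genes. A gene was kept if 2 footprint libraries (or 1 for mRNA) reached the RPKM that 10 reads give in a library of median depth, with 15 or more reads summed over libraries, and all 50 members passed. The efficiency ratio used genes with at least 5 RPKM in both assays. The fits were tested on simulated data. Same-numbered wild-type and can1 footprint libraries deviated together (correlations 0.66, 0.24 and 0.43 over 3623 genes), which is the pairing check, and a replicate block there called no member either. Members, lists and classes were chosen with earlier results of these data known. The rule for naming genes took 1 landmark per class, the members called in a footprint or mRNA test, the 2 nearest the threshold in rpl22a, the highest and lowest footprint level per class, and the 3 highest and lowest translational efficiencies. NOP14, NOC4, UTP8, UTP15, UTP18, NOP58, KRR1 and UTP4 and the genes of the mRNA ranges were named after their values were seen.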

Additional observations from a re-analysis of the deposited data

Results flagged for a closer look

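The rpl22a strain differed from another deletion strain, by limma on the difference itself, in the footprints of 10 members against can1 and 5 against tor1. Over all genes tested, 11.9% were called higher and 11.8% lower against can1, and 7.02% and 7.41% against tor1, so the members' shares were near or below those of genes at large. Against can1 the log2 differences were 0.69 in IMP4, 0.65 in IMP3, 0.65 in PNO1, 0.53 in UTP30, 0.46 in UTP23, 0.37 in EMG1, −0.73 in UTP22, −0.46 in RRP5, −0.45 in ECM16 and −0.45 in KRE33. Against tor1 they were 0.69 in IMP3, 0.47 in PNO1, −0.58 in UTP22, −0.58 in RRP5 and −0.54 in NOP56. These comparisons share the rpl22a libraries.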

How the results depend on the processing

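In rpl22a against wild type, 5 members were higher and 2 lower with the main settings. The deposited scaling gave 10 and 1 with a median of 0.26, beside 886 and 293 of 4900 genes. The length trend removed gave 6 and 1, beside 347 and 490 genes. The 2 strains alone gave 5 and 1, beside 395 and 393 genes. Leaving out 1 wild-type library gave 3 to 4 higher and 1 to 2 lower, beside 281 to 526 and 341 to 460 genes. Leaving out any 1 library gave medians of 0.00 to 0.21. Replicate numbers did not pair wild type with rpl22a (correlations of −0.34 and −0.11). A replicate block gave 2 higher and 1 lower, beside 238 and 275 of 4900 genes. With the 2 strains alone it gave 0 and 0, beside 95 and 110 genes. The block changed no call of a member in the can1 or tor1 comparisons with wild type. Against can1, the deposited scaling gave 11 and 1 with a median of 0.23, beside 857 and 364 of 4900 genes. The length trend removed gave 7 and 1, beside 412 and 561 genes, and the 2 strains alone 4 and 2, beside 500 and 414. The replicate block gave 3 and 2, beside 274 and 290 genes, and the block with 2 strains alone 0 and 1, beside 389 and 277. Leaving out 1 can1 library there gave 3 to 6 higher and 1 to 5 lower, beside 332 to 691 and 355 to 638 genes. Leaving out any 1 library of the 2 strains gave medians of 0.02 to 0.23. Against tor1, the deposited scaling gave 7 and 1 with a median of 0.23, beside 565 and 255 of 4900 genes. The length trend removed gave 5 and 1, beside 323 and 406 genes, and the block with 2 strains alone 5 and 3, beside 584 and 423. Leaving out 1 library there left 1 in its group, and the medians ran from 0.01 to 0.25.

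With the deposited scaling, the medians of the members were 0.31 in can1 mRNA, −0.23 in can1 translational efficiency and 0.57 in rpl22a mRNA. In rpl22a mRNA the median of all genes was then 0.27, and 24 members were past the fold. A pseudocount of 5 left 3 there. Without 1 library the medians of the members ran from −0.02 to 0.14 in can1 mRNA and from −0.12 to 0.01 in can1 translational efficiency. In rpl22a mRNA they ran from 0.26 to 0.40 (0 to 11 members past the fold) and in tor1 mRNA from −0.12 to 0.03. The share of all genes past the fold is not given for these settings, so these counts are no result about the members. No call of a named gene changed sign, whereas 13 values of genes that were not called did so under the alternatives. Of 14 alternatives, PNO1 kept its call against wild type in 13, UTP22 in 12, IMP3 in 11, IMP4 in 10, UTP30 in 7, RRP9 in 5 and UTP23 in 4. Apart from fewer samples in the left-out fits, the cause of these shifts was not tested. Precision is limited by the 2 rpl22a footprint libraries and 1 rpl22a mRNA library and, for members with few reads such as UTP30, by read depth.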
